A study of Mus musculus with 4 samples.

Results

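The genes that make interferons and those that receive them were followed across the thymic epithelial cells (TECs) of adult mice. There are 9 such genes here. They are 3 ligands, the type I interferon Ifnb1 and the type III interferons (interferon lambdas) Ifnl2 and Ifnl3, and 6 receptor chains, Ifnar1 and Ifnar2 (type I), Ifnlr1 and Il10rb (type III), and Ifngr1 and Ifngr2 (type II). These 9 are among 31053 genes listed in the files and were picked by gene symbol, with earlier measurements of these same libraries known, so their levels are given as a description. Their unique molecular identifiers (UMIs, one for each captured RNA molecule) were summed per cell class in each of 4 droplet-based scRNA-seq libraries.

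All mice were C57BL/6 and 6 weeks old, and each library held the pooled thymic cells of 3 mice, stained for the epithelial marker EpCAM and the blood cell markers CD45 and TER119. WT-Control mice had received control IgG. WT-RANKL-Ab mice had received a neutralizing antibody against RANKL, the ligand of the receptor RANK, at 5 mg/kg 2 weeks before sampling. Cd40-/- Control and Cd40-/- RANKL-Ab mice lacked the gene for the receptor CD40 and received the control IgG or the antibody. There was 1 library per condition, so no p-value is given, and every interval is a 95% interval that covers counting error only and not the spread between mice.

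Interferons are secreted alarm signals. Type I interferons bind IFNAR1 with IFNAR2 on nearly all cells, type III interferons bind IFNLR1 with IL10RB mainly on epithelia, and both switch on the same set of antiviral genes. Type II interferon, IFN-gamma, binds IFNGR1 with IFNGR2 and switches on a set of genes that overlaps with theirs. In the thymus, medullary TECs (mTECs) that carry the transcriptional regulator AIRE are known to make interferons without infection, and developing T cells and TECs respond to them.

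Values for all 4 libraries are given with WT-Control first, then WT-RANKL-Ab, then Cd40-/- Control and last Cd40-/- RANKL-Ab, and values for the 3 that follow WT-Control in that order too. The libraries kept 10218, 7164, 8591 and 2082 cells, at a median of 6086 to 7622 UMIs per cell. Cd40 was measured at 110.0, 28.8, 5.75 and 4.75 UMIs per 1000000 UMIs of the library (CPM), so it was lowest in both Cd40-/- libraries. Of the barcodes, 210 occurred in both Cd40-/- libraries, which is 10.0% of the smaller one, against 0.858% to 1.44% for the other pairs. The 205 of them kept in both libraries had a median of 723 UMIs in Cd40-/- Control against 24073 in Cd40-/- RANKL-Ab, and 158 fell in the same cell class in both. The ligand counts and, in Ccl21a-high mTEC-like cells, the receptor ratios and list medians of Cd40-/- RANKL-Ab are given with and without them. Cells were placed in 15 classes by marker genes, and the class names say which markers were high. All but the Aire+ mTEC-like class had markers of their own among the 10 genes that stood out most in the class. There, 0 of the 10 were markers, and its 8 markers summed to 9534 CPM.

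Both interferon lambda genes lie close together on chromosome 7 and are nearly copies of each other. On build GRCm38, Ifnl2 spans chr7:28508836-28510455 on the minus strand and Ifnl3 spans chr7:28522836-28524322 on the plus strand. Their coding sequences of 582 bases differed at 17 positions, an identity of 97.1%, with a longest identical run of 166 bases. The last coding exon is shown because 3′ libraries read near this end and because 7 of the 17 differences fall in its 99 bases. It lies at chr7:28508861-28508959 in Ifnl2 and at chr7:28524224-28524322 in Ifnl3, and is written 5′ to 3′ along each gene with the differing bases in capitals.
Ifnl2: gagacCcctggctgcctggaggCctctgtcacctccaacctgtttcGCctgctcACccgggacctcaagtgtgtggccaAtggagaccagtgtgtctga
Ifnl3: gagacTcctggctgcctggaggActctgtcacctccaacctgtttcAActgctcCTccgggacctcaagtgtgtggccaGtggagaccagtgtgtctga
Reads from stretches without a capital letter cannot be assigned to 1 of the 2 genes, so the split between Ifnl2 and Ifnl3 is uncertain, and their sum is the safer value.

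The ligands came from few cells. The WT-Control library had 840 UMIs of the 3 ligands in 194 of 10218 cells (1.90%). The WT-RANKL-Ab library had 53 UMIs in 17 cells (0.237%), Cd40-/- Control had 410 UMIs in 99 cells (1.15%), and Cd40-/- RANKL-Ab had 2 UMIs in 1 cell (0.0480%). Over all cells, the summed level was 8.82, 1.09, 6.18 and 0.104 CPM in that order. Set against WT-Control as a log2 ratio, WT-RANKL-Ab was at -3.02 (interval -3.45 to -2.62), Cd40-/- Control at -0.51 (-0.69 to -0.34) and Cd40-/- RANKL-Ab at -6.40 (-9.45 to -4.54). Since UMIs of 1 cell are not independent, these intervals are narrower than the true error. Each antibody library was below the control library of the same genotype.

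Ifnb1, the single gene for interferon beta (chr4:88522025-88522774, minus strand), had 124 UMIs in 34 cells of WT-Control and 49 UMIs in 20 cells of Cd40-/- Control. No Ifnb1 UMI was found in the 7164 cells of WT-RANKL-Ab. The only cell with ligand UMIs in Cd40-/- RANKL-Ab held 2 Ifnb1 UMIs. It was cTEC-like, carried no Aire UMI, and had a barcode that also occurred in Cd40-/- Control. Without the shared barcodes, 0 ligand UMIs were left among 1872 cells of Cd40-/- RANKL-Ab, while Cd40-/- Control kept its 410 UMIs in 99 cells. Ifnl2 had 466 UMIs in 120 cells, 39 in 14 cells, 241 in 62 cells and 0 in the 4 libraries, from WT-Control to Cd40-/- RANKL-Ab. For Ifnl3 the values were 250 UMIs in 83 cells, 14 in 8 cells, 120 in 43 cells and 0. All 3 ligands thus had the same order of libraries, apart from the 2 Ifnb1 UMIs.

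**Figure D1:**
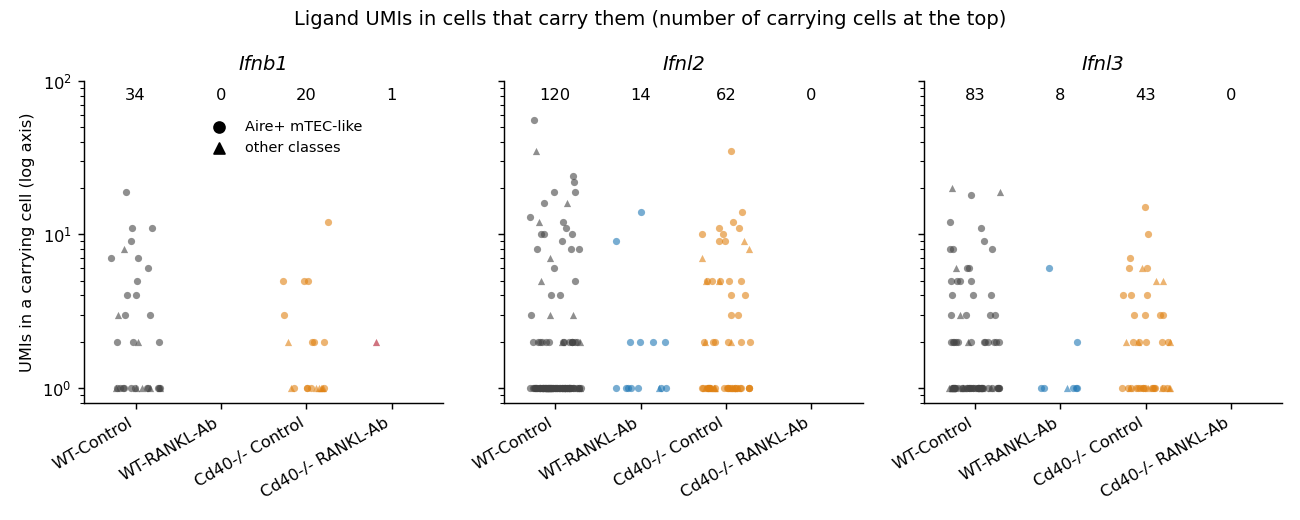
UMIs of Ifnb1, Ifnl2 and Ifnl3 in each cell that carries at least 1, by library, on a log axis; circles are Aire+ mTEC-like cells, triangles are cells of other classes, and the number of carriers stands at the top. Many carriers hold 1 UMI and a few hold many, up to 19 for Ifnb1 and 56 for Ifnl2 in WT-Control, and Cd40-/- RANKL-Ab has 1 carrier, of Ifnb1.

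Most ligand UMIs sat in Aire+ mTEC-like cells, a class gated for the mature medullary cells that display self-antigens. This class held 79.2%, 96.2% and 80.5% of them in the first 3 libraries (665 of 840, 51 of 53 and 330 of 410). The class itself made up 34.0%, 7.90%, 25.2% and 0.288% of the cells in the 4 libraries, which is 3473, 566, 2166 and 6 cells. With 6 cells, the ligand level inside the class could not be measured in Cd40-/- RANKL-Ab.

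Inside the Aire+ mTEC-like class, the summed ligand level was 19.5, 18.2 and 19.6 CPM in the first 3 libraries. The gate asked for at least 2 of 8 markers, which need not include Aire. Cells of the class without a ligand UMI had 589, 349.9 and 606 CPM of Aire in these libraries. Of them, 74.9%, 39.4% and 70.0% had an Aire UMI, at median depths of 9021, 2386 and 7254 UMIs. Whether the class holds the same cells in each library was not tested. The WT-RANKL-Ab value rests on few cells, as 2 of its 15 carriers held 60.8% of the 51 UMIs. Without the richest cell, which held 20 UMIs, the level was 11.1 CPM (7.56 to 15.8), against 17.7 (16.4 to 19.2) and 17.5 CPM (15.6 to 19.6) in WT-Control and Cd40-/- Control without theirs. Whether the level inside the class differed in WT-RANKL-Ab therefore turned on 1 cell. For single genes, Ifnl2 was at 10.8, 13.6 and 11.6 CPM and Ifnl3 at 5.56, 4.65 and 5.52 CPM in these 3 libraries. Ifnb1 was at 3.10 CPM in WT-Control, 2.43 in Cd40-/- Control and 0 in WT-RANKL-Ab, where a count of 0 allows a level of up to 1.07 CPM.

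The share of Aire+ mTEC-like cells with a ligand UMI was 4.49%, 2.65% and 3.37% in the first 3 libraries (156, 15 and 73 cells). The median depth of these cells was 9155, 2448 and 7313 UMIs, so the shares were also taken after thinning each cell to 1000 UMIs. They were then 1.08% (0.757% to 1.49%), 0.417% (2 of 480 cells) and 1.17% (0.754% to 1.74%), and all 3 intervals overlapped. Thinned to 2000 UMIs instead, they were 1.95%, 2.20% and 2.18%, so WT-RANKL-Ab went from the lowest to the highest share. The thinning to 1000 UMIs left out 136, 86 and 123 shallower cells. At these depths a difference in the share was not detectable. Thymocyte-like cells, which should lack these transcripts, had a ligand UMI in 0 of 59, 0 of 225 and 1 of 366 cells in the first 3 libraries, at median depths of 1348 to 2691 UMIs.

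**Figure D2:**
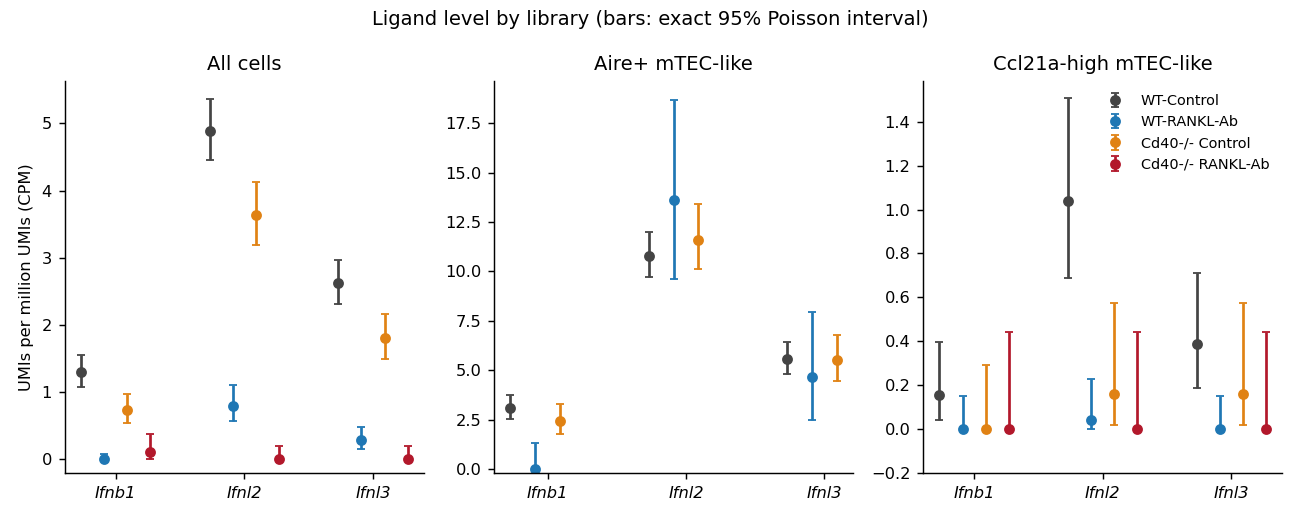
Level of Ifnb1, Ifnl2 and Ifnl3 in CPM by library over all cells, in Aire+ mTEC-like cells and in Ccl21a-high mTEC-like cells, each panel on its own axis, with exact 95% Poisson intervals; the 6 Aire+ mTEC-like cells of Cd40-/- RANKL-Ab are not drawn. Over all cells the antibody libraries lie below the controls, whereas in the Aire+ panel Ifnl2 lies at 10.8, 13.6 and 11.6 CPM with overlapping intervals.

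Outside that class, few cells carried a ligand. Microfold-like cells of WT-Control, mTECs that resemble the antigen-sampling cells of the gut, held 78 ligand UMIs in 5 of 264 cells (36.3 CPM, interval 28.7 to 45.3). A single keratinocyte-like cell held 26 UMIs, 19 of them Ifnl3, which set the level of that class at 43.9 CPM. Both levels were above the 19.5 CPM of Aire+ mTEC-like cells in the same library, on 5 carriers and 1 carrier. Among the microfold-like cells, 1 cell held 35 UMIs of Ifnl2 and 20 of Ifnl3, so both levels rest largely on 1 cell each. In Cd40-/- Control, microfold-like cells held 10 ligand UMIs among 188 cells, and keratinocyte-like cells held 0 among 78. Ccl21a-high mTEC-like cells, the medullary cells that make the T cell attractant CCL21, held 41, 1, 4 and 0 UMIs of the 3 ligands in the 4 libraries. The 41 UMIs of WT-Control came from 19 cells.

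Transcripts were bunched within carriers. In WT-Control, 112 of the 194 carriers had 1 ligand UMI, whereas 37 cells with 5 or more UMIs held 73.7% of all ligand UMIs. The 10 richest cells held 38.1%, 86.8% and 41.7% of the ligand UMIs in the first 3 libraries. Within Aire+ mTEC-like cells of WT-Control, a carrier of Ifnb1 had 4.08 UMIs of it on average, and carriers of Ifnl2 and Ifnl3 had 3.73 and 2.79. Genes of like total (within 1.5-fold) had a median of 1.21 to 1.28 UMIs per carrying cell. Of them, 96.2%, 94.3% and 89.9% lay below Ifnb1, Ifnl2 and Ifnl3. Values as high or higher were found for 116, 197 and 334 genes, the ligand itself included, so such bunching was not particular to the ligands. In contrast, Ifnar1, Ifnar2, Il10rb and Ifngr1 had 1.18 to 1.40 UMIs per carrier in the same cells, close to genes of like total. The ligands of Cd40-/- Control had 3.15 (Ifnb1), 4.08 (Ifnl2) and 2.91 (Ifnl3) UMIs per carrier.

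Ifnl2 and Ifnl3 were often found in the same cell. In WT-Control, 37 cells had both, which is 30.8% of Ifnl2 carriers and 44.6% of Ifnl3 carriers. Both were found in 24 cells of Cd40-/- Control (38.7% and 55.8%), and in 5 cells of WT-RANKL-Ab (35.7% and 62.5%). Reads that fit both copies cannot be told apart, and their part in this overlap was not tested. Ifnb1 was found with an interferon lambda in 6 of its 34 carriers in WT-Control and in 2 of 20 in Cd40-/- Control.

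Carriers and other Aire+ mTEC-like cells were also set side by side for Aire and for the interferon response. In WT-Control, Aire UMIs were found in 23 of 26 Ifnb1 carriers (88.5%), in 114 of 135 interferon lambda carriers (84.4%) and in 74.9% of cells without a ligand UMI. The shares in Cd40-/- Control were 76.9%, 65.6% and 70.0%, so interferon lambda carriers were below the rest there. In WT-Control the Aire level was 799.8, 470.2 and 589 CPM in that order, so Ifnb1 carriers were above and interferon lambda carriers below the other cells. In Cd40-/- Control the Aire level was 507 CPM in Ifnb1 carriers, 328 in interferon lambda carriers and 606 in the rest. In Aire level, interferon lambda carriers were below the rest in both control libraries and in WT-RANKL-Ab (163 against 349.9 CPM). Ifnb1 carriers had no such common direction. The WT-RANKL-Ab value rests on 21 Aire UMIs in 15 carriers. Of these carriers, 9 had an Aire UMI, against 217 of 551 cells without a ligand UMI. The share with Aire was thus higher in the carriers of that library, although their level was lower. Carriers were deeper than the rest in WT-Control (medians of 10370 and 11550 against 9021 UMIs). Interferon lambda carriers were also deeper in WT-RANKL-Ab (7082 against 2386 UMIs) and in Cd40-/- Control (9204 against 7254 UMIs). Greater depth raises the chance of finding a UMI of any gene. Ifnb1 carriers of Cd40-/- Control were shallower than the rest, at 6316 UMIs.

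Genes induced by type I and III interferons, a list of 21 such as Isg15, Irf7 and the Ifit genes, were higher in the carriers of the control libraries. In WT-Control, interferon lambda carriers had 2920.2 CPM of the list against 1450.2 CPM in the other cells (log2 ratio 1.01, interval 0.97 to 1.05), and 18 of the 20 genes detected were higher. The Cd40-/- Control values were 1723 and 1146 CPM (log2 ratio 0.59). In WT-RANKL-Ab, whose 15 carriers had 1189 CPM against 1265 CPM, the log2 ratio was -0.09 (-0.33 to 0.15). Ifnb1 carriers had 2925 CPM of the list in WT-Control. In Cd40-/- Control they had 9737 CPM, but 1 of 13 cells held 47.0% of these UMIs. The level per cell varied widely, with medians of 1873 CPM in Ifnb1 carriers, 1371 in interferon lambda carriers and 932 in cells with neither in WT-Control. A list of 15 type II response genes was higher in carriers of the control libraries too. For interferon lambda carriers its log2 ratio was 0.70 in WT-Control, 0.71 in Cd40-/- Control and -0.42 in WT-RANKL-Ab. For Ifnb1 carriers it was 1.49 in WT-Control and 2.20 in Cd40-/- Control, against 0.95 and 3.14 for the type I and III list. These sums rest on few cells, as the richest of 26 and of 13 Ifnb1 carriers held 15.5% and 30.2% of the type II UMIs. The medians per cell were 2226 and 5664 CPM in Ifnb1 carriers, against 991 and 1026 CPM in cells without a ligand UMI. In these values the difference was thus not particular to type I and III response genes. Markers of macrophages and dendritic cells, which make interferons too, were at 850.1 CPM in carriers and 869 CPM in other Aire+ mTEC-like cells of WT-Control, with all 5 markers detected in both. Thymocyte markers were at 85.2 and 78.1 CPM, with 11 and 12 of 12 markers detected. Parathyroid markers were higher in carriers of WT-Control, at 128 against 39.4 CPM, and erythroid markers were at 89.1 against 94.2 CPM. Carriers of Cd40-/- Control were higher for macrophage and dendritic cell markers, at 1177 against 934 CPM (4 and 5 of 5 detected). They were also higher for thymocyte markers, at 160.5 against 102 CPM (10 and 12 of 12). Erythroid markers were at 233 against 78.5 CPM there. Fibroblast and B cell markers were higher in these carriers too, whereas endothelial markers (23.3 against 29.1 CPM) and parathyroid markers were lower. The part of all these markers in the response values of both control libraries was not tested.

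Of the receptor genes, Ifnar2, Il10rb, Ifnar1 and Ifngr2 lie in this order on the plus strand of chromosome 16, within 193 kb (chr16:91372783-91565623). Ifngr1 (chr10:19591949-19610229) and Ifnlr1 (chr4:135686287-135708181) lie elsewhere, both on the plus strand. Each chain had its own distribution over the classes. Levels are compared between classes or libraries within a gene only, as UMI counts from different genes are not corrected for how well each is captured.

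Ifnlr1, the chain particular to interferon lambda, was scarce in the class that held most of the ligand. In Aire+ mTEC-like cells it had 10, 1 and 12 UMIs in WT-Control, WT-RANKL-Ab and Cd40-/- Control, that is 0.293 CPM (0.140 to 0.538), 0.358 (0.00906 to 1.99) and 0.712 (0.368 to 1.24). In Ccl21a-high mTEC-like cells it was at 5.01 (4.19 to 5.95), 5.39 (4.51 to 6.40) and 5.54 CPM (70 UMIs), and at 5.39 CPM (3.93 to 7.21) in Cd40-/- RANKL-Ab. The intervals of the 2 classes did not overlap in any of the 3 libraries. In cTEC-like cells, the cortical TECs, Ifnlr1 had 12, 15, 21 and 10 UMIs in the 4 libraries, from WT-Control to Cd40-/- RANKL-Ab, at 6.47, 2.70, 3.46 and 2.24 CPM. Early Aire-lineage-like cells, marked by Hes6 and Utf1, had 2 UMIs in each control library and 0 in WT-RANKL-Ab.

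Il10rb, the partner chain that the receptors for IL-10 and IL-22 also use, was highest in progenitor-like cells, a class marked by Pdpn and Dcn. It was at 126, 139, 139 and 154 CPM there in the 4 libraries. Aire+ mTEC-like cells had 38.0, 70.1 and 35.5 CPM in the first 3 libraries. Thymocyte-like cells had 28.6, 8.64, 15.4 and 15.1 CPM, the lowest class in 3 of 4 libraries.

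Ifnar1, the signalling chain of the type I receptor, ran in WT-Control from 11.1 CPM in enterohepatic-like cells to 28.3 CPM in Ccl21a-high mTEC-like cells. Aire+ mTEC-like cells, at 19.6 CPM (18.2 to 21.2), lay below the latter (26.3 to 30.4) beyond counting error. Ifnar1 ran in Cd40-/- Control from 11.1 CPM in ciliated-like to 45.5 CPM in thymocyte-like cells. Ifnar2, the chain that binds the ligand tightly, ran from 10.8 CPM in ciliated-like to 58.4 CPM in progenitor-like cells of WT-Control. For both chains, the intervals of all 13 pairs of classes next to each other in the order of levels overlapped in that library. Progenitor-like cells also had the highest Ifnar2 level in WT-RANKL-Ab (79.1 CPM) and Cd40-/- Control (107 CPM). Aire+ mTEC-like cells had 17.0, 32.6 and 25.9 CPM of Ifnar2 in WT-Control, WT-RANKL-Ab and Cd40-/- Control.

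The chains of the type II receptor peaked in different classes. Ifngr1, the chain that binds IFN-gamma, was highest in thymocyte-like cells, at 226, 278, 302 and 335 CPM in the 4 libraries. Aire+ mTEC-like cells had 23.0, 33.3 and 23.3 CPM, and Ccl21a-high mTEC-like cells 132, 140.5 and 146 CPM. Ifngr2, the second chain, was highest in early Aire-lineage-like cells, at 241, 203 and 301 CPM, and low in thymocyte-like cells, at 60.1, 29.2, 35.0 and 20.9 CPM. The ratio of Ifngr1 to Ifngr2 UMIs was 0.145 (0.134 to 0.156) in Aire+ mTEC-like cells of WT-Control, 1.11 (1.05 to 1.16) in Ccl21a-high mTEC-like cells and 3.76 (2.30 to 6.41) in thymocyte-like cells. The 3 intervals were apart. In Cd40-/- Control the ratio was 0.116 in Aire+ mTEC-like and 8.65 in thymocyte-like cells.

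**Figure D3:**
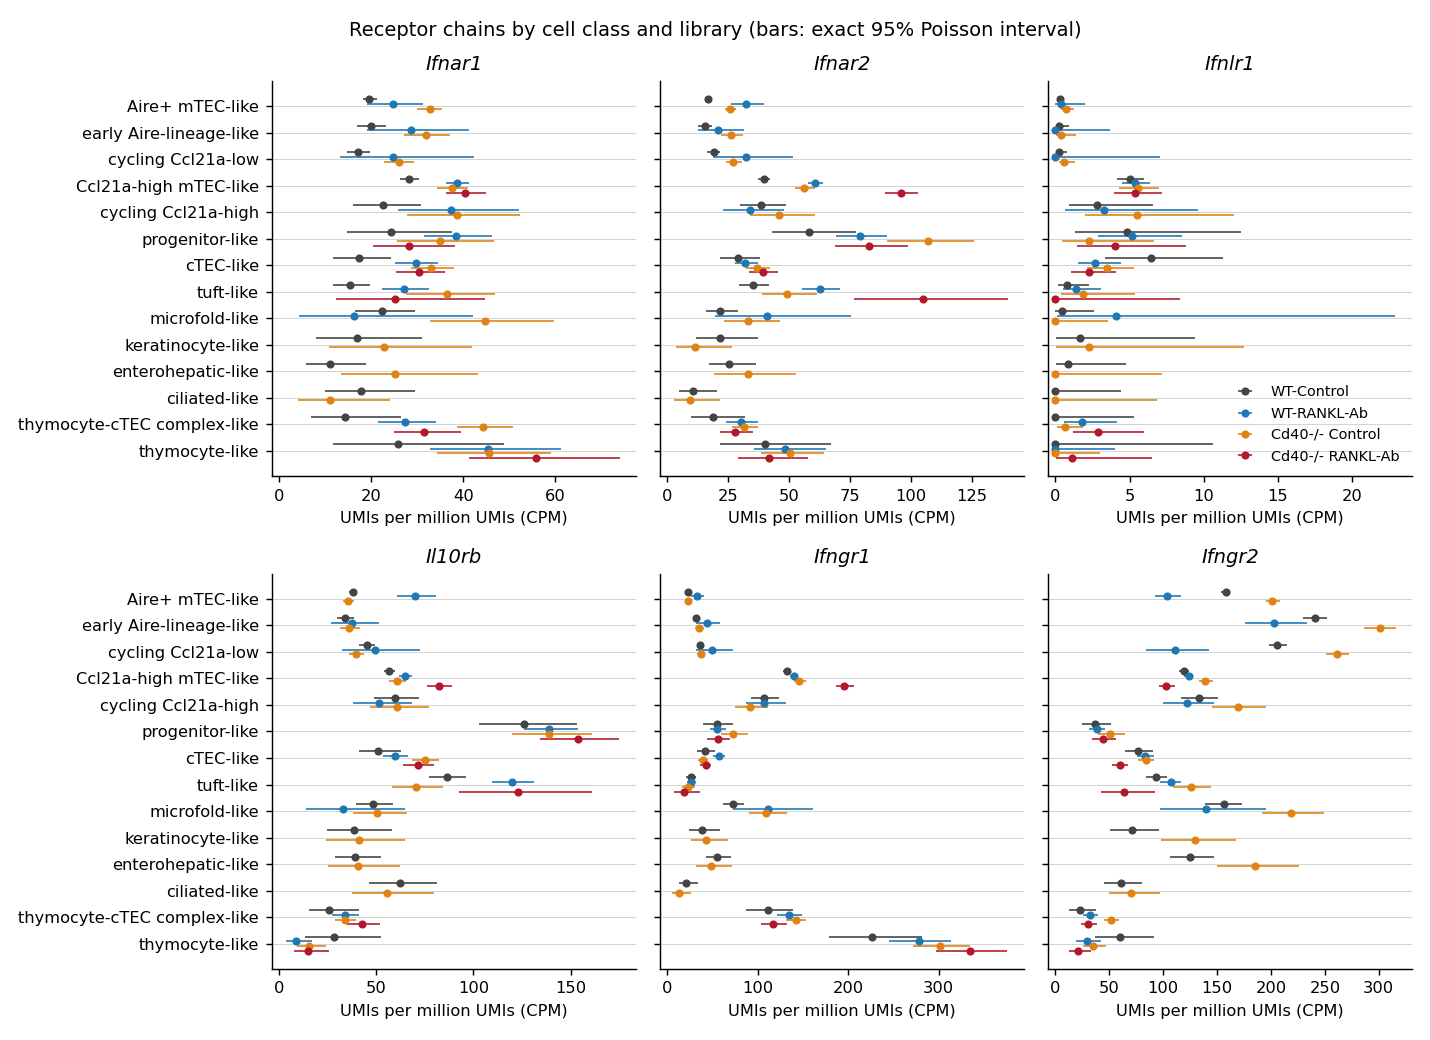
Level of each receptor chain in CPM, by cell class and library, with exact 95% Poisson intervals, for class sums of at least 200000 UMIs. Ifnlr1 lies between 0.293 and 0.712 CPM in Aire+ mTEC-like cells and between 5.01 and 5.54 CPM in Ccl21a-high mTEC-like cells, and Ifngr1 peaks in thymocyte-like cells, where Ifngr2 is low.

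Both chains of a receptor were seldom caught in 1 cell at equal depth. After thinning to 1000 UMIs, 1.66% of Ccl21a-high mTEC-like cells in WT-Control had UMIs of both Ifngr1 and Ifngr2, against 1.54%, 1.44% and 1.58% in the other libraries. For Ifnar1 with Ifnar2 the shares were 0.178%, 0.171%, 0.411% and 0.197%, and for Ifnlr1 with Il10rb they were 0.0297%, 0.0286%, 0 and 0.0987%. All intervals overlapped between libraries.

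The next question was whether the receptors differed where the ligand was low. In Ccl21a-high mTEC-like cells, present in all libraries (3538, 3638, 2056 and 1025 cells), Ifnar2 was at 39.8, 60.9, 56.4 and 95.9 CPM in the 4 libraries. The log2 ratios to WT-Control were 0.61 (0.50 to 0.73), 0.50 (0.36 to 0.64) and 1.27 (1.13 to 1.40). Ifnar1 was at 28.3, 38.7, 37.6 and 40.5 CPM, with log2 ratios of 0.46 (0.31 to 0.60), 0.41 (0.24 to 0.58) and 0.52 (0.33 to 0.71). Both type I chains were above WT-Control in all 3 libraries, beyond counting error. Without the shared barcodes, and with 1 CPM added, the Cd40-/- RANKL-Ab ratios were 1.23 for Ifnar2 and 0.55 for Ifnar1, against 1.25 and 0.50 with them.

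Ifngr1 was at 132, 140.5, 146 and 196 CPM in the same order, with log2 ratios of 0.09, 0.15 and 0.57 (0.48 to 0.65). Il10rb was at 56.8, 64.9, 60.9 and 82.5 CPM, with a log2 ratio of 0.54 (0.40 to 0.67) in Cd40-/- RANKL-Ab. Ifngr2 was at 119.6, 124, 139 and 103 CPM, and the log2 ratio in Cd40-/- RANKL-Ab was -0.21 (-0.32 to -0.10). Ifnlr1 had log2 ratios of 0.11, 0.14 and 0.10, with intervals that all held 0. In Cd40-/- RANKL-Ab, then, 4 chains were above WT-Control, Ifngr2 was below and Ifnlr1 could not be told from it. Without the shared barcodes, and with 1 CPM added, the ratios of Ifngr1, Il10rb, Ifngr2 and Ifnlr1 were 0.57, 0.53, -0.20 and 0.12, against 0.57, 0.53, -0.21 and 0.09 with them.

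The chains were also set beside all genes. A gene was counted as past 1.5-fold after adding 1 CPM, if the pair of libraries held 20 or more of its UMIs. That held for 1, 0 and 1 of the 6 chains in the 3 libraries set against WT-Control, and the chain was Ifnar2 each time. Of all genes in these cells, 19.5%, 24.5% and 31.9% were past that mark, so the counts of chains were near or below this background and are no result about them. With totals that leave out Ccl21a, or with CPM averaged over cells, the count in Cd40-/- RANKL-Ab was 2 of 6. The median log2 ratio of the 6 chains was 0.14, 0.18 and 0.52, against 0.09, 0.09 and 0.05 over all genes. In Cd40-/- RANKL-Ab, 5 of the 6 chains were above 0.

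In cTEC-like cells (162, 588, 782 and 392 cells), 2 of 6 chains were past 1.5-fold in each library, against 23.3%, 37.4% and 28.1% of all genes. The share was near that background. The chains were Ifnar1, which was higher, and Ifnlr1, which was lower and rests on 10 to 21 UMIs. Without the shared barcodes, 1 chain was past the mark in Cd40-/- RANKL-Ab. Ifnar1 was at 17.3 CPM in WT-Control and 29.7, 33.1 and 30.4 CPM in the other libraries, log2 ratios of 0.78 (0.23 to 1.38), 0.94 (0.40 to 1.53) and 0.82 (0.25 to 1.42). In progenitor-like cells 1, 1 and 0 of 5 chains were past it, against 22.2%, 35.6% and 23.9% of all genes. Ifnar1 was the chain in WT-RANKL-Ab, at a log2 ratio of 0.66 (-0.04 to 1.42). In Cd40-/- Control it was Ifnar2, at 107 CPM against 58.4 CPM. In tuft-like cells, mTECs that resemble chemosensory cells of the gut, 2, 1 and 2 of 5 chains were past it, against 20.4%, 28.9% and 39.3% of all genes. These were Ifnar1 and Ifnar2, and Ifnar2 was at 35.3, 62.9, 49.3 and 105 CPM, though the last value rests on 46 UMIs in 60 cells. Ifnar1 in Cd40-/- RANKL-Ab rests on 11 UMIs, with a log2 ratio of 0.71 (-0.37 to 1.65) that holds 0. Without the shared barcodes, 3 chains were past it in Cd40-/- RANKL-Ab. Ifnlr1 had under 20 UMIs in progenitor-like and tuft-like cells in these comparisons and was left out of both counts.

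WT-Control had the lowest level of Ifnar1 and of Ifnar2 in all 6 classes that could be followed in all 4 libraries. Of all genes with 20 or more UMIs in a class, WT-Control was lowest for 31.2% to 47.0%, and of the 8299 genes with that many in each of the 6 classes, 6.87% were lowest in WT-Control in all 6. Some of these orders were near ties, such as Ifnar2 in thymocyte-like cells, at 40.1 CPM (14 UMIs) against 41.9 CPM in the next library. The count was 3 of 6 classes for Ifnlr1, 4 for Il10rb, 4 for Ifngr1 and 2 for Ifngr2. As these classes share a library, they are not 6 independent observations.

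**Figure D4:**
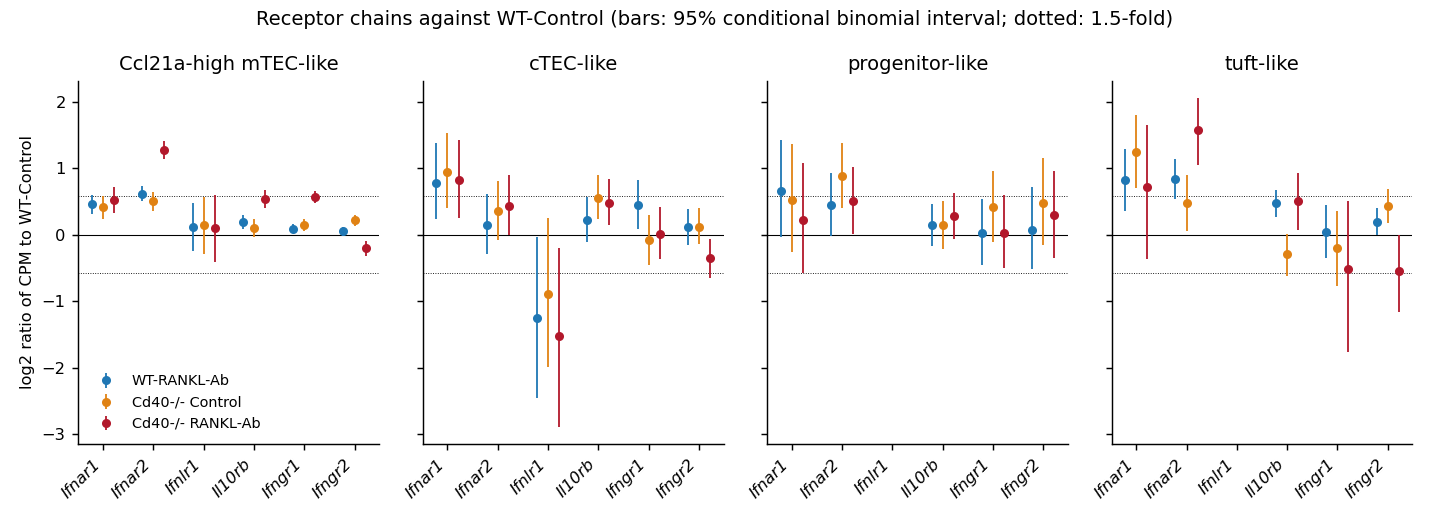
Log2 ratio of each receptor chain to WT-Control in 4 cell classes and 3 libraries, with 95% counting intervals. In Ccl21a-high mTEC-like cells Ifnar2 reaches 1.27 in Cd40-/- RANKL-Ab while Ifngr2 lies at -0.21.

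Other genes of the pathway were followed as lists. The type I and III response list had 20 of its 21 genes measured in Ccl21a-high mTEC-like cells. Of these, 16, 7 and 20 were more than 1.5-fold lower in the 3 libraries set against WT-Control, and 0 were that much higher in any. Of all genes, 13.1%, 9.67% and 18.1% were that much lower, and 6.42%, 14.9% and 13.8% higher. The median log2 ratio was -0.88, -0.37 and -2.43, against 0.09, 0.09 and 0.05 over all genes, and the last was -2.44 without the shared barcodes. Ifit3, an antiviral effector, was at 339, 146, 309 and 21.9 CPM in the 4 libraries. Irf7, the factor that amplifies type I interferon production, was at 328, 139, 190.4 and 10.7 CPM, a log2 ratio of -4.94 (-5.26 to -4.64) in the last. Response genes thus lay furthest below WT-Control in the library with the fewest ligand UMIs, in cells where the type I chains were above it.

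The same list had medians of -0.57, -0.34 and -1.08 in cTEC-like cells, -1.43, -0.64 and -2.44 in progenitor-like cells and -0.55, -0.63 and -3.03 in tuft-like cells. The order was that of Ccl21a-high mTEC-like cells in cTEC-like and progenitor-like cells, and the lowest median was in Cd40-/- RANKL-Ab in all 4 classes. The list of 15 type II response genes had medians of -0.53, 0.01 and -1.40 in Ccl21a-high mTEC-like cells, with 7 of 15, 2 of 15 and 10 of 14 genes more than 1.5-fold lower, against 13.1%, 9.67% and 18.1% of all genes. The 2 of 15 in Cd40-/- Control is near that background. Without the shared barcodes the last median was -1.46. Cxcl9, a chemokine induced by IFN-gamma, was at 101, 52.6, 46.8 and 12.1 CPM. Igtp, a GTPase of the same response, was at 79.2, 38.5, 72.2 and 16.8 CPM. Irf1, a transcription factor of this response, was at 57.9, 63.2, 58.2 and 60.3 CPM, with a log2 ratio of 0.06 (-0.09 to 0.21) in Cd40-/- RANKL-Ab.

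The 16 signal transducers and their regulators had medians of 0.11, 0.13 and -0.19 (-0.17 without the shared barcodes). In Cd40-/- RANKL-Ab, 1 was more than 1.5-fold higher and 6 lower, so 7 of 16 were past the mark, against 31.9% of all genes. Socs3, an inhibitor of cytokine receptors, was the higher one, at 114 CPM in WT-Control and 135, 157 and 319 CPM in the others. Pias1, a SUMO ligase, had a log2 ratio of 0.38 (0.17 to 0.59). Isg15, a ubiquitin-like protein, was at 1233, 413, 660.1 and 90.5 CPM, and Usp18, which removes it and binds IFNAR2, at 254, 169, 181 and 60.1 CPM. Both are themselves induced by interferon and are also in the type I and III response list.

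Among 22 sensors and inducers of interferon genes, 20 were measured, with medians of -0.12, 0.04 and -0.23 (-0.25 without the shared barcodes). In Cd40-/- RANKL-Ab, 1 was more than 1.5-fold higher and 6 lower. The 7 of 20 past the mark are near the 31.9% of all genes. Tbk1, the kinase that activates IRF3, was at 11.1, 13.7, 20.3 and 20.2 CPM. Nfkb1, a subunit of NF-kappa-B, was at 64.6, 76.1, 115 and 86.9 CPM. Dhx58, a regulator of RNA sensing that interferon induces, was at 56.9, 36.6, 59.7 and 11.4 CPM, a log2 ratio of -2.32 (-2.64 to -2.02) in Cd40-/- RANKL-Ab. Irf7 belongs to this list too. Isg15, Usp18, Dhx58 and Irf7 were named as the 2 that fell most in each of these lists, and all are induced by interferon. Isg15, Usp18 and Irf7 are also in the type I and III response list, and the other genes that fell are not named here.

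**Figure D5:**
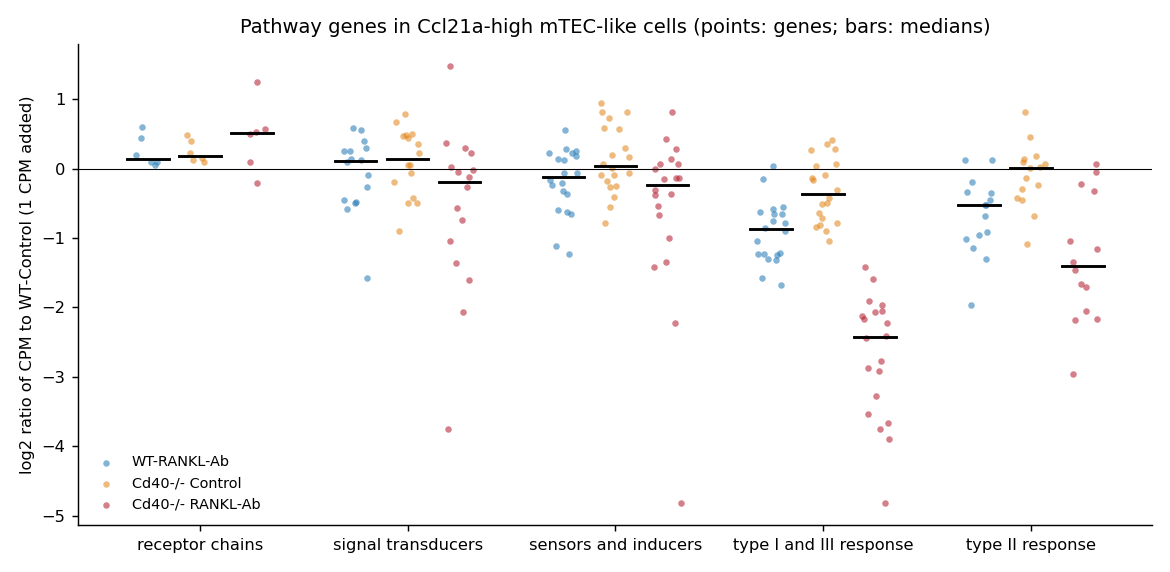
Log2 ratio to WT-Control of each gene of the receptor, transducer, sensor and response lists in Ccl21a-high mTEC-like cells, by library; points are genes and bars are medians. The type I and III response has medians of -0.88, -0.37 and -2.43, and the receptor chains 0.14, 0.18 and 0.52.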

How the data were processed

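The UMI counts per gene and cell were deposited by the authors as 1 filtered matrix per library. They mapped reads of a 10x 3′ library to mm10 with Cell Ranger, version 5.0.1 in the file headers and 5.1 in the submitters' processing notes. The labels and the methods name different kit versions. Genes per cell were counted over the 23568 genes present in over 5 cells. Cells with 200 or more of these and a mitochondrial share of up to 25% were kept. Sums and totals used all 31053 genes. No doublet caller was run; thymocyte-cTEC complexes were kept as a class. Cells were gated on marker lists in a fixed order and UMIs summed per class and library. Cells that passed no gate (5.58% to 10.3%) count in sums over all cells and over all TECs and in no class. The sums over all TECs leave out only thymocyte-like cells and thymocyte-cTEC complexes. The Aire+ gate used Aire, Cd40 and 6 other genes. Intervals (95%) were exact Poisson for counts, Clopper-Pearson for shares and conditional binomial for log2 ratios of counts; a count of 0 was given a limit of 3 counts. Medians and the 1.5-fold mark used log2(CPM + 1) differences for genes with at least 20 UMIs.

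The members and lists were chosen with earlier results of these data known. Genes named beyond the 9 were, in each list, those 2 that rose most and those 2 that fell most between WT-Control and Cd40-/- RANKL-Ab in Ccl21a-high mTEC-like cells, and, for each chain, the 3 genes most alike over 45 class sums of at least 200000 UMIs. The list of macrophage and dendritic cell markers and the other non-epithelial lists were used as checks. With 1 library of 3 pooled mice per condition there were no replicates. Libraries held 19153685 to 95277834 UMIs. Alternatives were other filters, gates, scalings, pseudocounts and thresholds; leaving out shared barcodes, leaving out the 5% deepest cells, leaving out the 1 or 2 cells richest in ligand UMIs and gating without Cd40 were chosen after seeing the data. The log2 ratios and their intervals were tested on simulated counts, and the thinning on 1 gene, Ifngr2. The simulated counts were independent, unlike the UMIs of 1 cell, and the other intervals were not tested. Coordinates and sequences are from the GRCm38 annotation and genome. Tools were R 4.3.3 with edgeR 4.0.16, for TMM factors only, and Python 3.11.15 with scipy 1.17.1, numpy 2.4.6, matplotlib 3.10.9 and pandas 2.3.3.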

Additional observations from a re-analysis of the deposited data

Results flagged for a closer look

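In 4 cases the antibody library lay above its control in WT and below it in Cd40-/- mice, and the counting intervals of the pair did not overlap. These cases were picked for this outcome from all 9 genes in Ccl21a-high mTEC-like, cTEC-like, progenitor-like and tuft-like cells and over all TECs. The share of all genes that meet the same rule was not computed. In each case 1 of the 2 intervals held 0, and with 1 library per condition the difference was not tested. Ifngr2 had a log2 ratio of antibody to control of 0.05 (-0.02 to 0.12) in WT and -0.43 (-0.55 to -0.31) in Cd40-/- mice in Ccl21a-high mTEC-like cells. The same gene had 0.11 (-0.16 to 0.39) and -0.48 (-0.70 to -0.27) in cTEC-like cells. In tuft-like cells it had 0.19 (-0.01 to 0.40) and -0.98 (-1.60 to -0.40), where the last rests on 28 UMIs. Ifnar1 had 0.78 (0.23 to 1.38) in WT and -0.12 (-0.45 to 0.20) in Cd40-/- mice in cTEC-like cells, the first on 32 UMIs in WT-Control.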

How the results depend on the processing

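Of 2952 values recomputed under another setting, 246 moved by more than their counting interval or, for counts, by over 1.5 times. A reversal was scored only for log2 ratios and medians that were at least 1.5-fold from WT-Control at first, and 0 of these changed sign. Levels, shares and counts could not be scored so, and smaller ratios could change sign unscored. Ifngr1 in cTEC-like cells of Cd40-/- RANKL-Ab, for instance, went from 0.01 to -0.11 without the shared barcodes. Among the 141 that answer a comparison, 16 moved. The cause was not tested where the setting does not show it. When CPM was taken per cell and then averaged, the ligand log2 ratio in WT-RANKL-Ab was -2.33. In Ccl21a-high mTEC-like cells of WT-RANKL-Ab, 0 chains were past the mark with stricter gates, TMM factors, CPM averaged over cells, 10 CPM added or a 2-fold mark. In Cd40-/- RANKL-Ab, 2 were past it with totals that leave out Ccl21a and with CPM averaged over cells. With 10 CPM added, the type I and III response median was -0.71 in WT-RANKL-Ab and -1.86 for Cd40-/- RANKL-Ab. It was -0.53 in Cd40-/- Control with TMM factors. The log2 ratio of Ifnar2 was 0.33 in Cd40-/- Control with TMM factors and 1.09 in Cd40-/- RANKL-Ab with 10 CPM added. Thinned to 2000 UMIs, the share of Aire+ mTEC-like cells with a ligand UMI was 1.95%, 2.20% and 2.18% in WT-Control, WT-RANKL-Ab and Cd40-/- Control. Leaving out the shared barcodes moved 0 of 15 such values and 12 of 341 in all. It took cells from the Cd40-/- libraries only, so the values among these that involve only WT libraries could not move. Leaving out the deepest cells moved 0 of 15 and 16 of 340, and gating without Cd40, run for 3 values, moved 0. Without the cell richest in ligand UMIs, the WT-RANKL-Ab level within the Aire+ class was 11.1 CPM. No paired analysis was possible because each condition has 1 library and the labels give no replicate numbers. Ligand values in WT-RANKL-Ab rest on 17 cells, and 6 Aire+ mTEC-like cells in Cd40-/- RANKL-Ab cannot show whether the level inside that class differed.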

Other observations

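Among the other interferon genes, Ifng had the most UMIs. Of 17 further ligand genes, 8 had 0 UMIs in all 4 libraries, all 8 of them among the 13 Ifna genes. Ifng, the type II interferon, had 195 UMIs in 67 cells of WT-Control, 10 in 7 cells of WT-RANKL-Ab, 50 in 25 cells of Cd40-/- Control and 4 in 1 cell of Cd40-/- RANKL-Ab. Of the 67 carriers in WT-Control, 40 were Aire+ mTEC-like, with 3.10 UMIs of Ifng per carrier. Ifna16 had 60 UMIs in 2 cells of WT-Control. In Ccl21a-high mTEC-like cells Ifng had 41 UMIs in WT-Control and 0 in each other library. Among the genes that share Il10rb, the cytokine Il22 had 90 UMIs there in WT-Control, 59 in Cd40-/- Control and 0 in both antibody libraries, and Il10 had 38, 18, 3 and 1.

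Over 45 class sums and 16150 genes, the genes whose level most resembled that of a receptor chain were found by Pearson's correlation of log2(CPM + 1). The sums share libraries and depth, and no p is given. For Ifngr2 they were Ttn (0.91), Stx7 (0.90) and Birc3 (0.89). For Ifngr1 they were Plekhg2 (0.87), Abracl (0.81) and Dgka (0.80). For Il10rb they were Il13ra1 (0.85), Arid5b (0.84) and Ryk (0.83), and for Ifnar2 Serinc1 (0.85), Zbtb20 (0.83) and Tax1bp3 (0.81). For Ifnlr1 they were Osmr (0.80), 2810433D01Rik (0.79) and Cdh3 (0.77), and for Ifnar1 Zfp451 (0.79), Atrx (0.78) and R3hdm1 (0.78).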
